A study of Rattus norvegicus with 17 samples.

Results

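The genes described here carry the antioxidant, glutathione and metal response of rat skin. They are 39 listed genes of superoxide and peroxide removal, the thioredoxin and glutathione systems, the NRF2 pathway, the pentose phosphate pathway, ferritin and metallothionein. They were chosen by name, not by a measured value, and each was found through the sequence name of its probe, matched to a RefSeq gene table. Of the 39 genes, 38 had a named probe, and their 44 probes are among 30367 on the array. A total of 37 genes were measured, and all 37 lay well above background on all 17 arrays. Gclm, the modifier subunit of the enzyme that begins glutathione synthesis, lay well above background on 1 exposed and 1 sham array and was too dim to compare. Pgd, an enzyme of the pentose phosphate pathway, had no named probe.

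Skin explants came from male CD hairless rats that were 2 to 3 months old at the start. Over 5.5 months exposed rats had 3 weekly sessions of 3 h under 94 GHz millimetre waves, and sham rats were handled on that schedule with sham exposure. The labels give 9 exposed and 8 sham arrays, but according to the design text 6 animals were exposed and 8 sham exposed. Some exposed arrays may thus share an animal, and the labels do not say which. Every p-value here is then too small and every interval too narrow. All rats were of 1 strain and sex, and an explant holds epidermis, dermis and whatever follicle, fat and muscle was cut with it. Basal keratinocyte markers (6 of 6 measured) and differentiated keratinocyte markers (7 of 7) lay well above background on all arrays. In such bulk tissue fewer cells of a type and less RNA per cell cannot be told apart.

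As background, cells remove superoxide with superoxide dismutases, which make hydrogen peroxide, and remove peroxides with catalase, peroxiredoxins and glutathione peroxidases. Thioredoxin and glutathione supply the electrons, and NADPH, made partly by the pentose phosphate pathway, restores both. The transcription factor NRF2 is held down by KEAP1 and, when oxidants or reactive chemicals release it, drives many of these genes through antioxidant response elements. Metallothioneins bind zinc and copper, and the zinc-sensing factor MTF1 drives them through metal response elements. In skin these systems meet ultraviolet light and oxygen at the surface, and hair follicles take up much cysteine for hair keratin.

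No gene of the group was called different between exposed and sham skin. Of the 37 genes, 0 passed an adjusted p of 0.05 in limma, with Benjamini-Hochberg adjustment over 20709 probes, and the share of all probes that passed was 0%. The smallest adjusted p was 0.983, among these genes and among all probes. At an unadjusted p under 0.05, read from 1 probe per gene, the count was also 0 of 37, against 4.55% of all probes, of which 0.594% were higher in exposed skin and 3.96% lower. Two-sided exact permutation tests over the arrays gave 0 of 37 genes a p under 0.05, and their p ran from 0.124 to 0.953. By value alone 20 genes were higher and 17 lower in exposed skin, where 38.7% of all probes were higher. Exposed and sham values overlapped for all 37 genes, and 0.00483% of all probes did not overlap.

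The differences were small, and for most genes the intervals were narrow when each array was taken as a separate animal. Values are log2 of the scanner signal relative to the 75th percentile of the array, and a difference is exposed minus sham on that scale. The median difference was 0.0094 over the 37 genes and -0.025 over all probes, and the median size was 0.053 against 0.067. The 95% interval stayed inside 1.2-fold in either direction for 20 of the 37 genes, inside 1.5-fold for 34 and inside 2-fold for 36. The exception was Slc7a11, whose interval reached 2.5-fold. The failure to pass a threshold does not show that the genes behaved alike in both groups. These intervals give what the arrays could bound, and they are too narrow if exposed arrays share an animal.

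**Figure D1:**
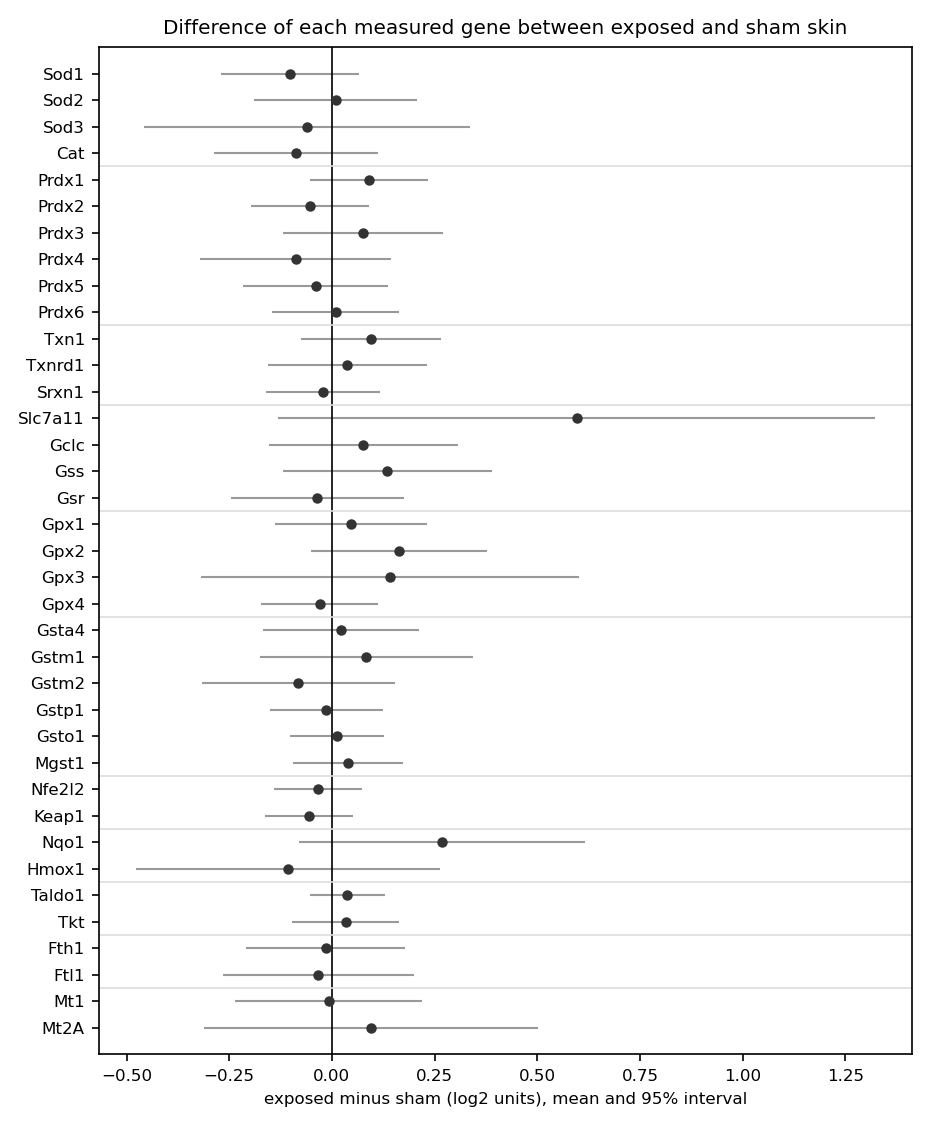
Exposed minus sham difference of each of the 37 measured genes in log2 units (horizontal axis, point with 95% interval from limma), with pale lines between functional groups. All 37 intervals cross 0, the interval of Slc7a11 is the widest, from -0.13 to 1.32, and those of Taldo1, Keap1 and Nfe2l2 are among the narrowest.

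Neither regulator passed the test, and both were steady from array to array. Keap1, the sensor that holds NRF2 for degradation, ran from -1.23 over a median of -1.09 to -0.96 in exposed skin, and from -1.21 over -1.03 to -0.91 in sham skin. The groups overlapped, with 2 of 9 exposed values higher than the sham mean. Its difference was -0.056 (95% interval -0.16 to 0.050; adjusted p = 0.983 in limma, exact permutation p = 0.228). Nfe2l2, which encodes NRF2, had a difference of -0.035 (-0.14 to 0.073). Both had an SD of 0.09 within groups, at percentiles 7.92 and 8.33 among all kept probes.

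Targets of NRF2 with induction in many tissues went in no common direction. Nqo1, a quinone reductase often read as a measure of NRF2 activity, ran from -2.19 over a median of -1.80 to -0.65 in exposed skin and from -2.14 over -1.94 to -1.74 in sham skin. The sham arrays lay close together, whereas 4 exposed arrays lay above the highest sham array and 2 of them, replicates 5 and 7, stood well above. The mean was -1.68 ± 0.48 (SD, n = 9) in exposed and -1.95 ± 0.13 (SD, n = 8) in sham skin. The difference was 0.27 (-0.081 to 0.62; adjusted p = 0.983 in limma, exact permutation p = 0.144), and 0.14 without exposed replicate 5. It was 0.17, 0.41, 0.27 and 0.25 within slides 1 to 4, of which slides 3 and 4 hold 1 exposed array each. Hmox1, which breaks down heme, ran from -0.79 over -0.047 to 0.56 in exposed skin and from -0.40 over 0.11 to 0.41 in sham skin, with wide overlap. Its difference was -0.11 (-0.48 to 0.26), and -0.016 without exposed replicate 3. Txnrd1, thioredoxin reductase, ran from -2.65 over -2.03 to -1.89 in exposed skin and from -2.42 over -2.12 to -2.08 in sham skin. In 6 exposed arrays the value exceeded that of every sham array, whereas exposed replicate 2 was the lowest of all. Its difference was 0.038 (-0.15 to 0.23), and -0.055 at its other kept probe, which correlated with the first at r = 0.51 over the arrays.

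**Figure D2:**
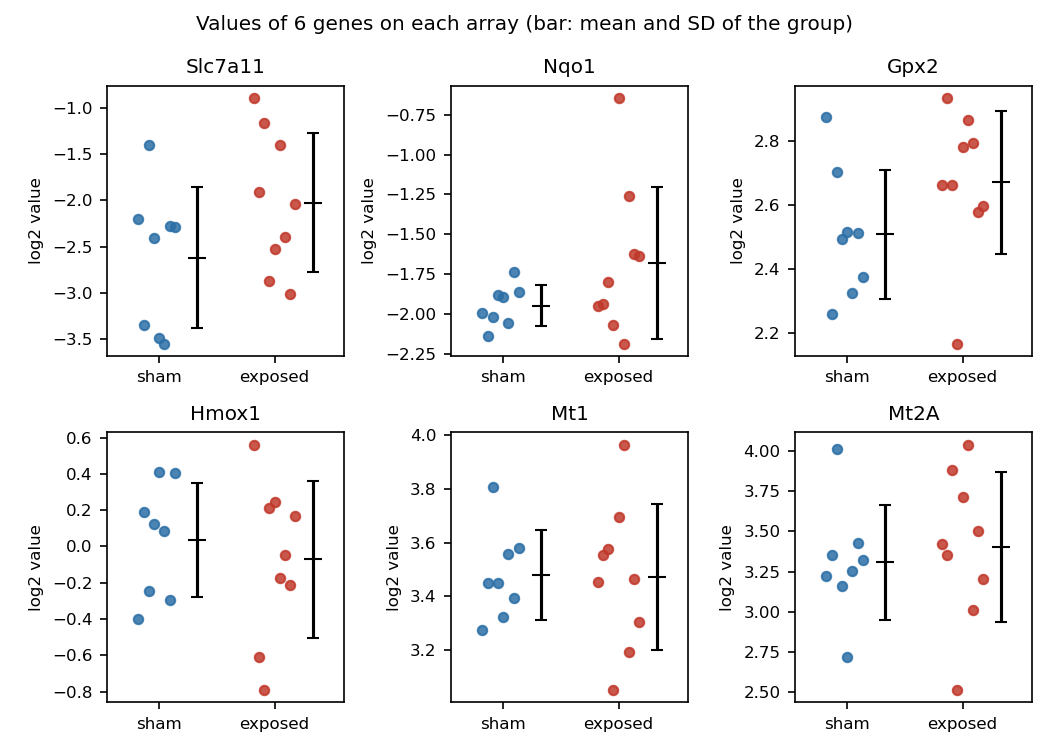
Log2 values of Slc7a11, Nqo1, Gpx2, Hmox1, Mt1 and Mt2A on each array (points), with the mean and SD of each group beside them (8 sham and 9 exposed arrays). Sham values of Nqo1 lie between -2.14 and -1.74 while exposed values reach -0.65, and exposed and sham values overlap for all 6 genes.

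Glutathione supply held the largest difference and the largest spread of the group. Slc7a11, the membrane exchanger that brings cystine in for glutathione synthesis, ran from -3.01 over a median of -2.04 to -0.90 in exposed skin and from -3.55 over -2.35 to -1.40 in sham skin. Both groups held low and high arrays, and 3 exposed arrays lay above the highest sham array. The mean was 0.60 higher in exposed skin, or 1.51-fold (0.91 to 2.5-fold; adjusted p = 0.983 in limma, exact permutation p = 0.124), the only difference of the group past 1.5-fold. The 17 arrays spanned 6.27-fold, and the SD within groups of 0.75 exceeded that of 96.4% of kept probes. Its difference was 1.45 within slide 1, -0.39 within slide 2, 0.48 within slide 3 and 0.67 within slide 4. Slides 3 and 4 hold 1 exposed array each. It was 0.31 once marker scores of skeletal muscle, hair follicle and adipocytes were fitted beside the groups, and 0.45 to 0.77 on leaving out each array in turn.

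The enzymes that build and renew glutathione varied less. Gss, glutathione synthase, ran from -1.09 over -0.69 to -0.43 in exposed skin and from -1.33 over -0.81 to -0.41 in sham skin. The groups overlapped over nearly their whole range, and the difference was 0.14 (-0.12 to 0.39; adjusted p = 0.983 in limma, exact permutation p = 0.295). Gclc, the catalytic subunit of the rate-limiting ligase, differed by 0.077 (-0.15 to 0.31), and Gsr, which returns oxidised glutathione to its reduced form, by -0.035 (-0.25 to 0.17).

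Among the glutathione peroxidases Gpx2 and Gpx3 had the larger differences, neither past the threshold. Gpx2, an epithelial form, ran from 2.17 over 2.66 to 2.94 in exposed skin and from 2.26 over 2.51 to 2.88 in sham skin. In 8 of 9 exposed arrays the value exceeded the sham mean, while exposed replicate 4 was the lowest of all 17 arrays. The difference was 0.16 (-0.051 to 0.38; adjusted p = 0.983 in limma, exact permutation p = 0.138), and 0.20 at its other kept probe, where the unadjusted p was 0.0459 in limma. Gpx3, the secreted form, spread widely in sham skin, from -1.08 over -0.13 to 1.05, and ran from -0.43 over 0.065 to 0.26 in exposed skin. Its difference of 0.14 (-0.32 to 0.60) became 0.31 without sham replicate 5, the highest array, and 0.0078 without sham replicate 6, the lowest. Gpx1, the common cytosolic form, and Gpx4, which reduces lipid peroxides in membranes, differed by 0.047 (-0.14 to 0.23) and -0.030 (-0.17 to 0.11). The other kept probe of Gpx4 gave 0.014.

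The 6 glutathione transferases, which join glutathione to reactive chemicals, differed by -0.081 to 0.084, with 4 higher and 2 lower by value. Gstm1, a mu class form, ran from -1.66 over -1.31 to -0.89 in exposed skin and from -1.76 over -1.44 to -0.87 in sham skin. Its values overlapped throughout, and the difference was 0.084 (-0.18 to 0.34). Gstm2, of the same class, differed by -0.081 (-0.32 to 0.15). Gsta4, which acts on products of lipid peroxidation, differed by 0.023 (-0.17 to 0.21) and the membrane-bound Mgst1 by 0.040 (-0.094 to 0.17). Gstp1, of the pi class, differed by -0.013 (-0.15 to 0.12) and Gsto1, of the omega class, by 0.012 (-0.10 to 0.13). Closely related members of this family can share probe signal, which was not tested.

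Of the 3 superoxide dismutases and catalase, 3 genes were lower and 1 higher by value, none past the test. Sod1, the cytosolic copper-zinc superoxide dismutase, ran from 4.20 over 4.46 to 4.72 in exposed skin and from 4.27 over 4.59 to 4.75 in sham skin. It exceeded the sham mean on 2 of 9 exposed arrays, and the groups overlapped. The difference was -0.10 (-0.27 to 0.065; adjusted p = 0.983 in limma, exact permutation p = 0.214). Sod3, the extracellular form, ran from 0.73 over 1.67 to 2.08 in exposed skin and from 1.24 over 1.58 to 2.60 in sham skin. Exposed replicate 3 was the lowest array and sham replicate 5 the highest. The SD of Sod3 within groups was 0.41, and its difference of -0.061 (-0.46 to 0.34) turned to 0.068 without sham replicate 5. Cat, catalase, differed by -0.087 (-0.29 to 0.11), and Sod2, the mitochondrial form, by 0.0095 (-0.19 to 0.21).

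Peroxiredoxins and thioredoxin also stayed within their spread. Of the 6 peroxiredoxins 3 were higher and 3 lower by value. The cytosolic Prdx1 differed by 0.090 (-0.054 to 0.24) and Prdx2 by -0.053 (-0.20 to 0.091), and the mitochondrial Prdx3 differed by 0.076 (-0.12 to 0.27). Prdx4, of the endoplasmic reticulum, differed by -0.088 (-0.32 to 0.14), and by 0.010 without sham replicate 5. Prdx5 differed by -0.039 (-0.22 to 0.14) and Prdx6, which also repairs membrane lipids, by 0.0088 (-0.15 to 0.16). Txn1, thioredoxin itself, ran from 3.94 over 4.34 to 4.52 in exposed skin and from 4.10 over 4.23 to 4.54 in sham skin. It exceeded the sham mean on 8 exposed arrays of 9, and its difference was 0.095 (-0.074 to 0.27). Srxn1, which repairs over-oxidised peroxiredoxins, differed by -0.022 (-0.16 to 0.12).

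In the pentose phosphate pathway Taldo1 (transaldolase) differed by 0.038 (-0.053 to 0.13) and Tkt (transketolase) by 0.034 (-0.096 to 0.16). Taldo1 was the steadiest gene of the group, with an SD of 0.07 within groups. Fth1 and Ftl1, the heavy and light subunits of the iron store ferritin, differed by -0.015 (-0.21 to 0.18) and -0.033 (-0.27 to 0.20).

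Neither metallothionein gene passed the test between the groups, and the 2 genes moved together from array to array. Mt1 ran from 3.05 over a median of 3.46 to 3.96 in exposed skin and from 3.28 over 3.45 to 3.81 in sham skin, a difference of -0.0073 (-0.24 to 0.22; adjusted p = 0.996 in limma, exact permutation p = 0.953). Mt2A ran from 2.51 over 3.42 to 4.04 in exposed skin and from 2.72 over 3.29 to 4.02 in sham skin, a difference of 0.095 (-0.31 to 0.50). Exposed replicate 4 was the lowest and exposed replicate 6 the highest array for both genes, with sham replicate 3 next to the highest. Over the 17 arrays the 2 genes correlated at r = 0.88 (permutation p = 1e-05, the smallest 100000 permutations can give; rho = 0.80, permutation p = 0.00028). Mt2A ranked number 1 of 11160 genes in its correlation with Mt1. In the other direction Mt1 ranked number 5 in its correlation with Mt2A, after Steap1, Tpd52l1, Gprc5a and Entpd3. The correlation was 0.93 in exposed skin, 0.78 in sham skin, 0.89 after each slide mean was taken off and 0.78 without the 2 arrays farthest from the median of Mt1. Signal shared between the probes of these similar transcripts was not tested.

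**Figure D3:**
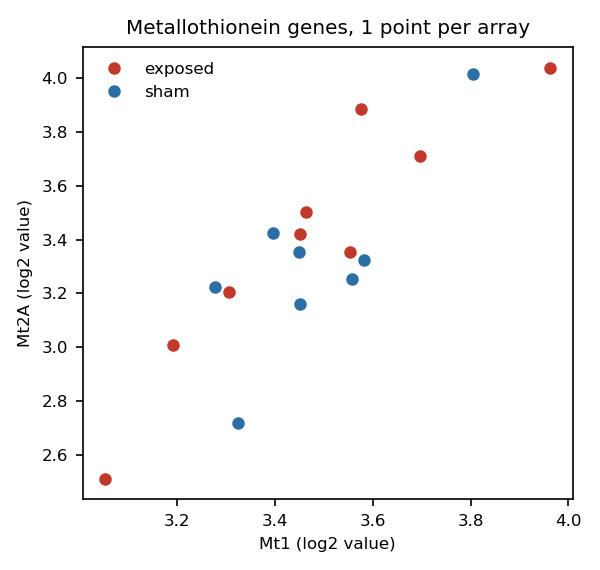
Mt2A against Mt1, both as log2 values, 1 point per array (9 exposed, 8 sham). Exposed replicate 4 is lowest for both genes and exposed replicate 6 highest, and exposed and sham points lie along the same band (r = 0.88).

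The promoters of this pair are shown because the 2 genes move together and lie side by side. Both were taken from RefSeq on the rat assembly GRCr8, as the 250 bases before the start of the gene, and their starts are 5.73 kb apart on the minus strand of chromosome 19. Mt1 lies at chr19:10832976-10833225 and Mt2A at chr19:10838709-10838958. Each is printed 5′ to 3′ along the gene, with cores of the metal response element in capitals (TGCACNC or TGCGCNC, on either strand).
Mt1: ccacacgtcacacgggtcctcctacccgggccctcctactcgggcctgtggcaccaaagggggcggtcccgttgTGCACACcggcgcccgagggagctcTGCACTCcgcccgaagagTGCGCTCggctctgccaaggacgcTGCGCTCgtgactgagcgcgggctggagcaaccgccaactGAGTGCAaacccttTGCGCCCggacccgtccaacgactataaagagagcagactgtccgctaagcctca
Mt2A: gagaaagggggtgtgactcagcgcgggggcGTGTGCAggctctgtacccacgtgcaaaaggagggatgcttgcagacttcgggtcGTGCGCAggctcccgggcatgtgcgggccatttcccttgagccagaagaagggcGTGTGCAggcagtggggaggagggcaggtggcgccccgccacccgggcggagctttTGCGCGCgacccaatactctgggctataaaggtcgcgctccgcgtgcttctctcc
The window of Mt1 held 6 such cores and that of Mt2A held 4. At least 4 were found in 0.266% of 33469 RefSeq promoter windows, and at least 1 in 20.6%. A promoter window was at hand for 33 of the 39 genes, and 7 of the 33 (21.2%) held at least 1 core. A core of the antioxidant response element, TGACNNNGC on either strand, was found in 7 of the 33 windows (21.2%), against 10.1% of all windows. Those were the windows of Sod2, Prdx1, Gclm, Gpx2, Gstp1, Mt1 and Mt2A. The matches describe letters in these windows, and no binding was measured.

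Some of the genes varied from array to array with the hair follicle markers of the explant. The level of these markers cannot tell more follicle from more RNA per follicle cell. A hair follicle score was the mean, over 15 measured follicle genes such as the hair keratins Krt31 and Krt81 and the inner root sheath keratins Krt25 and Krt28, of the log2 value minus the gene mean. It ran from -6.24 on sham replicate 5 and -3.34 on exposed replicate 4 to 2.38 on exposed replicate 3 and 2.56 on sham replicate 3. Between the groups it differed by 0.71 (two-sided exact permutation p = 0.550). Of the 37 genes, 15 correlated with it at a permutation p under 0.05, against 22.0% of all probes. The relation was positive for 6 of them, against 9.33% of all probes, and negative for 9. After adjustment over all probes and 5 tissue scores (103465 relations), 4 of the 37 genes passed 0.05, against 557 of 20693 probes. Gss and Mt2A rose with the score, and Ftl1 and Gpx1 fell.

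Among the genes that supply glutathione only Gss passed the adjusted threshold for a relation to the follicle score. It had its lowest value, -1.33, on the array with the lowest score (sham replicate 5). Its highest, -0.41, was on the array with the highest score (sham replicate 3). Gss correlated with the score at r = 0.88 (permutation p = 1e-05, adjusted p = 0.00337; rho = 0.95, permutation p = 1e-05). The relation was 0.88 in exposed skin, 0.89 in sham skin, 0.85 after slide means were taken off and 0.85 without sham replicate 5 and exposed replicate 4, the 2 arrays farthest from the median score. Slc7a11 correlated at r = 0.67 (permutation p = 0.00186, adjusted p = 0.0835; rho = 0.69, permutation p = 0.00261), and Gclc at r = 0.67 (permutation p = 0.00107, adjusted p = 0.0650; rho = 0.82, permutation p = 0.00014). Neither passed the adjusted threshold. Without the 2 farthest arrays these were 0.63 and 0.71.

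Of the metallothioneins Mt2A passed and Mt1 did not. Mt2A correlated at r = 0.81 (permutation p = 7e-05, adjusted p = 0.0130; rho = 0.70, permutation p = 0.00232), with 0.87 in exposed and 0.83 in sham skin and 0.70 without the 2 farthest arrays. Its difference between exposed and sham skin became -0.080 once those 3 tissue scores were fitted beside the groups. Mt1 had r = 0.53 (permutation p = 0.0315, adjusted p = 0.266; rho = 0.48, permutation p = 0.0569) and Txn1, which did not pass either, r = 0.61 (permutation p = 0.00874, adjusted p = 0.160; rho = 0.67, permutation p = 0.00405).

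Ftl1 and Gpx1 were higher where follicle markers were low, and no transferase passed the adjusted threshold. Ftl1 ran from 5.79 on exposed replicate 9 to 6.60 on sham replicate 5, and correlated at r = -0.79 (permutation p = 7e-05, adjusted p = 0.0130; rho = -0.80, permutation p = 0.00017). Without the 2 farthest arrays it was -0.67. Gpx1 had r = -0.75 (permutation p = 0.00057, adjusted p = 0.0475; rho = -0.69, permutation p = 0.0025), and -0.50 without those arrays, so part of its relation rested on them. The other genes with a negative relation at an unadjusted permutation p under 0.05, none past the adjusted threshold, were Sod3 (-0.66), Gpx4 (-0.64), Gstm2 (-0.63), Prdx5 (-0.59), Gstm1 (-0.54), Gstp1 (-0.52) and Gsta4 (-0.52). Leaving out sham replicate 5 alone reduced Sod3 to -0.40, Gstm1 to -0.33 and Gstp1 to -0.19, so these 3 rested largely on that array. A score from the 8 follicle markers that were well above background on all arrays gave the same 15 genes. Those 8 are among the markers of the first score and the 2 scores correlated at r = 0.998, so this is not separate evidence.

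**Figure D4:**
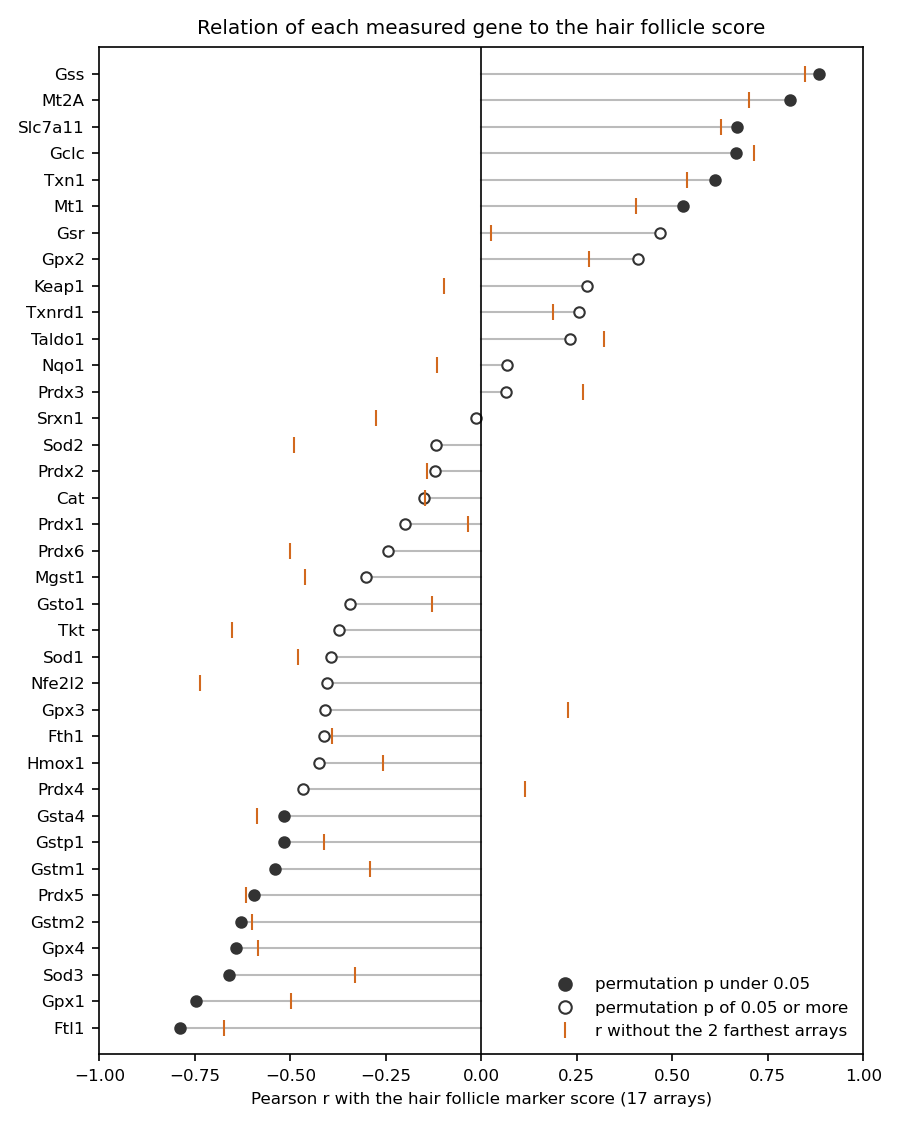
Pearson r of each of the 37 genes with the hair follicle score over 17 arrays (points, filled where the permutation p is under 0.05), and r without sham replicate 5 and exposed replicate 4 (short vertical marks). Gss (0.88) and Mt2A (0.81) stand at the top and Ftl1 (-0.79) and Gpx1 (-0.75) at the bottom.

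**Figure D5:**
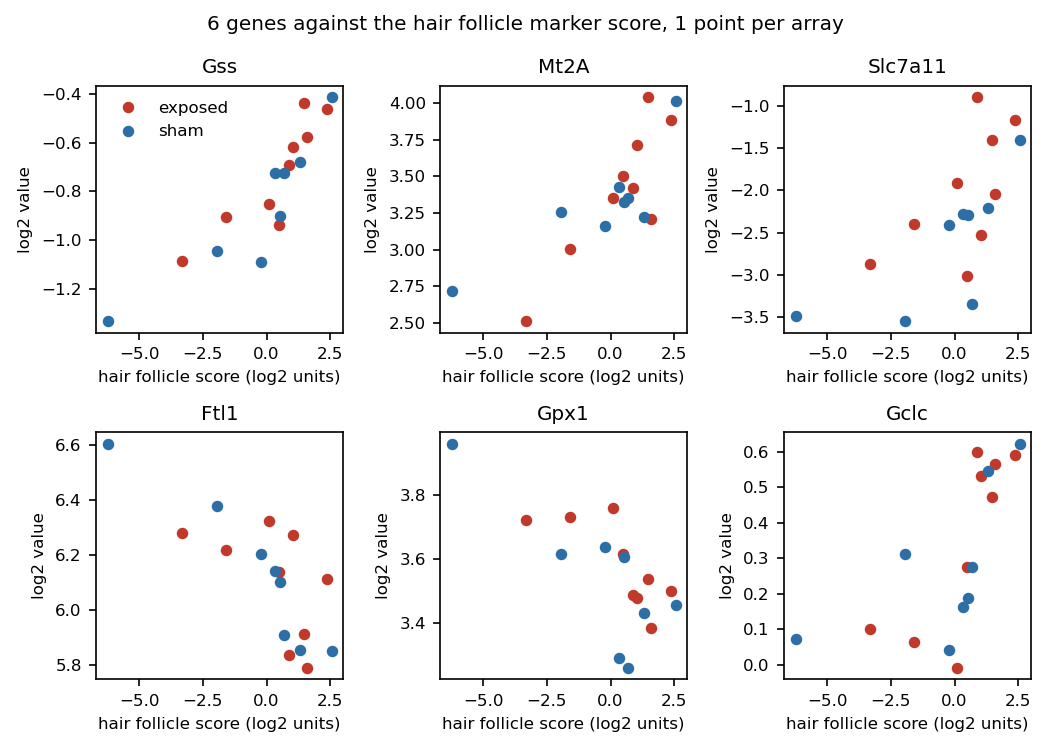
Log2 values of Gss, Mt2A, Slc7a11, Ftl1, Gpx1 and Gclc (vertical axes) against the hair follicle score in log2 units, 1 point per array, exposed and sham in different colours. Gss climbs from -1.33 on the array at -6.24 to -0.41 on the array at 2.56, both of them sham. Ftl1 is highest, at 6.60, on the array with the lowest score.

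For the scores of 4 other tissues and cell types, no gene of the group passed the adjusted threshold. Of 20693 probes, 199 passed it for skeletal muscle, 156 for adipocytes, 244 for red blood cells and 114 for macrophages and dendritic cells. Macrophage and dendritic cell markers were all measured (14 of 14, of them 13 well above background on all arrays). The 6 genes with a permutation p under 0.05 compare with 13.1% of all probes, and all had a positive r (8.03% of all probes): Ftl1 (0.72), Gpx1 (0.69), Gpx4 (0.69), Fth1 (0.68), Prdx4 (0.63) and Gsto1 (0.49). For Ftl1 the permutation p was 0.0008 and the adjusted p 0.0563, with rho = 0.56 (permutation p = 0.0214), and r was 0.47 without the 2 farthest arrays. Red blood cell markers (5 of 10 measured, of them only 2 well above background on all arrays) gave 7 genes, against 16.8% of all probes. Nfe2l2 was lower where they were high, at r = -0.74 (permutation p = 0.0008, adjusted p = 0.0563; rho = -0.68, permutation p = 0.00343), -0.75 in exposed and -0.72 in sham skin. The other 6, among them Prdx4 (0.63) and Taldo1 (0.64), had a positive r, as had 7.60% of all probes. Adipocyte markers gave 4 genes, against 17.4% of all probes, and 2 of the 4 had a positive r, against 6.36%. Skeletal muscle markers gave Srxn1 alone (r = -0.57), against 8.59% of all probes, with 0 genes of positive r against 4.32%. The part of tissue makeup in the differences between exposed and sham skin was not tested. With the muscle, hair follicle and adipocyte scores fitted beside the groups, 0 of 37 genes passed an adjusted p of 0.05 in limma. The count was also 0 without these scores, so it does not bear on that part.

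Several pairs of genes within the group moved closely together. The median r over 666 pairs was 0.10, against 0.010 over pairs of every 10th probe, and 3.75% of pairs had an r over 0.7, against 1.08%. After Mt1 and Mt2A the closest pairs were Gss with Mt2A (0.82), Gpx4 with Ftl1 (0.82), Gstm2 with Hmox1 (0.82), Gsta4 with Tkt (0.82) and Sod3 with Gstm1 (0.80). By r with the first gene of each pair, the second ranked 149, 39, 54, 39 and 129 of 11160 genes, so many other genes lay closer. Gss and Ftl1 were the most opposed pair, at r = -0.76, then Nfe2l2 with Taldo1 (-0.72) and Gss with Gpx1 (-0.71). Gss, Mt2A, Ftl1 and Gpx1 are also the 4 genes tied to the follicle score, so those pairs are not separate evidence. Over all genes the pattern of Mt2A was nearest to that of Steap1, of the STEAP family, at r = 0.92, and that of Slc7a11 to that of Fam3b (0.86), and these were picked from the values.

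The wider pathway gave no call either. Of 170 further genes on 9 lists, 143 were measured, 83 were higher and 60 lower by value in exposed skin, and 0 passed an adjusted p of 0.05 in limma. At an unadjusted p under 0.05, Steap4, an iron and copper reductase, was higher (0.21). Sesn2, a stress-induced sestrin, was lower (-0.19), as were Abcc1, a glutathione conjugate exporter (-0.13), and the copper pumps Atp7a (-0.13) and Atp7b (-0.20). These 5 of 143 genes compare with 4.55% of all probes. In the list of glutathione enzymes 16 were higher and 10 lower by value, in that of NRF2 targets 14 and 8, and in that of zinc and copper handling 10 and 7. Duox1 and Duox2, which make hydrogen peroxide at the epithelial surface, differed by 0.17 and 0.19 without passing either threshold. The other genes with the smallest p in their lists missed it too. Among these were Ggt7 (0.32) and Gstm7 (-0.20) of the glutathione enzymes, Txnip (0.10), which binds thioredoxin, and Cbr1 (0.13), a carbonyl reductase. Nfe2l1 (0.076), a relative of NRF2, and Btrc (0.089), of a ubiquitin ligase, led the NRF2 partners. The values were -0.064 for H6pd and 0.10 for Rpe of the pentose phosphate pathway, 0.057 for Aco1, an iron-sensing aconitase, and -0.071 and -0.052 for the selenoproteins Selenop and Selenot.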

How the data were processed

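Per the file headers, the authors deposited linear intensity from Agilent Feature Extraction for each array, background-subtracted and detrended within the array but not scaled between arrays. The deposited value table holds log2 values centred per probe, used as an alternative, and its scaling step is not given in the sources used here. The main scale was log2 of each processed signal relative to the 75th percentile of its array. Of 62976 spots per array, flagged and control spots were left out and spots of a probe averaged. The 20709 probes well above background on at least 8 arrays were kept, and a gene was read from its kept probe with the highest mean. The 75th percentile ran from 1077 to 1703, 66.7% to 70.8% of probes lay well above background, and no spot was saturated. The number of arrays limits the precision.

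All kept probes entered a limma fit (version 3.58.1, R 4.3.3) of exposed against sham, and single genes were compared by two-sided exact permutation tests. The fit was also run on simulated data. Those simulated arrays were independent, with no shared animal, slide or tissue makeup, so that run does not bear on these features. Relations over arrays used 100000 permutations, adjusted over all complete probes and 5 scores in place of the planned adjustment over the genes of the group alone. Slide (4 slides) was tried as a block and within each slide. Slides 1 to 4 held 3, 4, 1 and 1 exposed arrays and 2, 2, 1 and 3 sham arrays. Normexp ran on the median signal, since the mean was not used here. The genes, lists and tests were chosen with earlier results of these data known. Lowest, median and highest values are given for the 2 genes with the smallest p in each direction and the 8 with the largest SD. They are also given for both metallothioneins and 5 well-known NRF2 targets, except Gclm, which was too dim. Further genes were added (Gpx2, Txn1). The 2 genes with the smallest p in each further list are named.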

Additional observations from a re-analysis of the deposited data

Results flagged for a closer look

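Of 74 groups of values tested (37 genes in exposed and in sham skin), 5 held an array that stood apart from the rest of its group by more than the 95% critical value of Dixon's test. Chance alone gives about 1 in 20 groups such an array. Sham replicate 6 was highest for Sod2 (-0.14), and sham replicate 5, the array with the lowest hair follicle score (-6.24), was highest for Prdx4 (0.78). Exposed replicate 3, which had the highest follicle score of the exposed arrays (2.38), was lowest for Sod3 (0.73). Exposed replicate 4, which had the lowest follicle score of the exposed arrays (-3.34), was lowest for Txn1 (3.94) and for Gpx2 (2.17). The part of follicle content in these values was not tested.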

How the results depend on the processing

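No gene of the group passed an adjusted p of 0.05 in any of 32 settings, of which the comparison within slide 3 allowed no test. A total of 19 of the 37 kept the sign of their difference in all settings other than single slides. On leaving out 1 array 15 changed sign, 7 of them without sham replicate 5, and 34 did so within at least 1 of the 4 slides. No paired analysis was possible because the labels carry no replicate numbers. At an unadjusted p under 0.05 the count of genes was 0, but 1 with normexp and quantile scaling and 1 in the deposited value table (Tkt in both), 2 within slide 1 (Slc7a11, Gpx3), and 0 to 2 on leaving out 1 array. It was 2 without exposed replicate 4 (Gpx2, Txn1), 1 without sham replicate 1 (Gpx2) and 1 without sham replicate 3 (Slc7a11). Genes related to the adipocyte score numbered 4, but 2 with quantile scaling, 1 with either normexp setting, 8 after slide means were taken off and 0 to 6 on leaving out 1 array. Those related to the red blood cell score numbered 7 but 4 with quantile scaling, and those related to the muscle score 1, but 7 after slide means were taken off and 1 to 3 on leaving out 1 array.

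Outside single slides, signs that turned were mostly of differences near 0. Within single slides larger differences turned too, such as that of Slc7a11, 0.60 over all arrays and -0.39 within slide 2. The cause was not tested. With array weights Sod2 was -0.0033, Gsr 0.0062, Gstp1 0.0063 and Fth1 0.0090. Over the mean of all kept probes Txnrd1 was -0.0088. With the median as the scale Gstp1 was 0.0038, Fth1 0.0022 and Mt1 0.0098. With normexp and quantile scaling Gpx4 was 0.0032, Fth1 0.053, Ftl1 0.035 and Mt1 0.0074, and with normexp and the 75th percentile Fth1 and Mt1 were 0.0066. Quantile scaling gave Fth1 0.040 and Ftl1 0.033, and the deposited values gave 0.040 and 0.035. With slide as a block Gsto1 was -0.013 and Fth1 0.0081. With muscle, hair follicle and adipocyte scores as covariates Prdx5 was 0.031, Gstp1 0.024, Nfe2l2 0.0057, Fth1 0.0099, Ftl1 0.034 and Mt2A -0.080.

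Within slide 1 values turned for Sod1 (0.0039), Cat (0.065), Prdx4 (0.088), Txnrd1 (-0.072), Gclc (-0.018), Gsr (0.074), Gpx4 (0.14), Fth1 (0.22), Ftl1 (0.21), Mt1 (0.16), H6pd (0.025), Atp7b (0.011), Selenop (0.16) and Selenot (0.087). Within slide 2 they turned for Sod2 (-0.026), Sod3 (0.14), Prdx3 (-0.10), Prdx5 (0.13), Txn1 (-0.13), Srxn1 (0.0044), Slc7a11 (-0.39), Gclc (-0.039), Gss (-0.0086), Gpx3 (-0.0034), Gstm2 (0.10), Gstp1 (0.040), Gsto1 (-0.018), Nfe2l2 (0.027), Hmox1 (0.12), Fth1 (0.073), Ftl1 (0.14), Mt2A (-0.27), Nfe2l1 (-0.11), Rpe (-0.09) and Duox2 (-0.11). Within slide 4 they turned for Sod2 (-0.44), Sod3 (0.22), Prdx2 (0.022), Prdx6 (-0.068), Srxn1 (0.097), Gpx1 (-0.12), Gpx3 (-0.036), Gsta4 (-0.22), Gstp1 (0.11), Gsto1 (-0.054), Mgst1 (-0.037), Hmox1 (0.10), Tkt (-0.17), Mt2A (-0.13), Gstm7 (0.20), Ggt7 (-0.63), Txnip (-0.065) and Aco1 (-0.019). Within slide 3, which holds 1 array of each group and allows no test, 11 genes of the group turned: Cat (0.23), Prdx1 (-0.054), Gsr (0.41), Gpx1 (-0.35), Gpx3 (-0.92), Gsta4 (-0.032), Gstm1 (-0.36), Gsto1 (-0.16), Nfe2l2 (0.0023), Keap1 (0.094) and Mt1 (0.14). Of the further genes Sesn2 (0.17), H6pd (0.039), Steap4 (-0.00076) and Duox2 (-0.24) turned there.

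On leaving out 1 array in turn the values ran from -0.044 to 0.025 for Gstp1, -0.060 to 0.046 for Fth1, -0.031 to 0.079 for Sod2, -0.039 to 0.050 for Prdx6, -0.044 to 0.050 for Gsta4, -0.012 to 0.039 for Gsto1 and -0.13 to 0.068 for Sod3. They ran from -0.081 to 0.0026 for Prdx5, -0.089 to 0.0062 for Gsr, -0.0053 to 0.058 for Tkt, -0.069 to 0.045 for Mt1 and -0.057 to 0.0030 for Srxn1. For Prdx4 they ran from -0.13 to 0.010, for Gpx4 from -0.060 to 0.0043, for Ftl1 from -0.073 to 0.034 and for Selenop from -0.099 to 0.00064.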

Other observations

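Of the 143 further pathway genes measured, 37 (25.9%) correlated with the hair follicle score at a permutation p under 0.05, 19 upwards and 18 downwards, a share near the 22.0% of all probes. This comparison was added after the listed genes had been seen. After adjustment over all probes and scores 6 of the 143 genes passed 0.05, each with a positive r, against 557 of 20693 probes of either sign. Mt4, a metallothionein of stratified epithelium, had r = 0.98, and Ggt1, which breaks down extracellular glutathione, had r = 0.97 (adjusted p = 0.00337 for each, by permutation). Ggt1 was well above background on 15 of the 17 arrays, and its lowest sham value, -8.05, was very dim. The zinc exporter gene Slc30a1 and the zinc importer gene Slc39a6 had r = 0.82 each, Chac1, which degrades glutathione inside cells, had 0.81, and Slc3a2, the partner chain of the cystine exchanger Slc7a11, had 0.71. Without sham replicate 5 and exposed replicate 4, the arrays with the lowest scores, these 6 ran from 0.60 for Slc3a2 to 0.96 for Mt4. Ggct, Glo1, Esd and Hpgds, 4 further glutathione enzymes, had an r of -0.64, -0.68, -0.60 and -0.64, none past the adjusted threshold. By list, the count at an unadjusted permutation p under 0.05 was 13 of 26 for glutathione enzymes. It was 6 of 15 for genes that make superoxide and peroxide and 6 of 17 for zinc and copper genes. For selenoprotein genes it was 3 of 12, for iron and heme genes 3 of 18 and for NRF2 targets 3 of 22. Thioredoxin, glutaredoxin and methionine sulfoxide enzymes had 2 of 15, and NRF2 partners and repressors 1 of 12. In the pentose phosphate list the count was 0 of 7. Whether any list differed from the 22.0% of all probes was not tested.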
